A study of Mus musculus with 12 samples.

Results

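Osteoblast differentiation genes are described here over 12 mouse arrays, 6 from mesenchymal stem cells (MSCs) grown with hematopoietic stem/progenitor cells (HSCs) and 6 from MSCs grown alone. The set was given by name and holds 8 genes: Runx2, Sp7 and Dlx5, which encode transcription factors, Alpl and Ibsp of the mineralizing matrix, the hormone receptor gene Pth1r, and Dmp1 and Phex of late osteoblasts and osteocytes. The platform annotation gave 7 of the 8 as the single symbol of at least 1 probe set, 11 probe sets in all among 45037 on the array and 7 genes among 18193. Runx2 was the symbol of no probe set on its own and was not analysed here.

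None of the 7 genes was above background on all 12 arrays, and none passed the test between the groups. Sp7, Alpl, Dlx5 and Pth1r were above background on some arrays, whereas Ibsp, Dmp1 and Phex were above it on 0 arrays. Sp7 was above it on 7 of 12 arrays, Alpl on 4, and Dlx5 and Pth1r on 1 each. Against a stricter background, the 99th percentile of the same receptor probe sets, Sp7 was above on 3 arrays and the other 6 genes on 0.

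The cells came from the bone marrow of C57BL/6 mice, 6 weeks old and male by their labels. For its co-cultures of sorted cells the study took MSCs from C57BL/6 mice with a CAG-EGFP transgene, which marks all their cells, and HSCs from C57BL/6 mice without it, and which donors served the arrays is not stated. MSCs carried PDGFR-α and Sca-1, and HSCs were lineage-negative cells with Sca-1 and c-Kit. Each well was seeded with 3000 MSCs, joined by 7000 HSCs in the co-culture group and by none in the MSC-only group, in IMDM with serum and with no osteogenic induction named for the arrays, and RNA was taken on day 6. Contact between the cell types (direct or through an insert), any new sort ahead of RNA extraction and the number of animals behind the cultures are stated neither by the labels nor by the study's methods, so that p-values measure the spread between these samples only.

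Some arrays went against their labels. On numbers 3 and 4 of both groups, Xist, which is transcribed from an inactive X chromosome, lay between 16809.6 and 21977.5, and the Y-linked gene Eif2s3y between 0.5 and 13.6. On numbers 1, 2, 5 and 6 of the MSC-only group Xist lay between 60.5 and 117.6 and Eif2s3y between 2603.8 and 2844.8. The co-cultures of the same numbers held both, with Xist between 13135.8 and 16604.0 and Eif2s3y between 1021.6 and 1330.9. Differences of the osteoblast differentiation probe sets are therefore given with and without numbers 3 and 4. Those of all other genes are given over all 12 arrays only. On numbers 1, 2, 5 and 6 the culture and the sex of the cells cannot be told apart. Macrophage and leukocyte genes were high in both groups, although the MSCs had been sorted as free of CD45. Of 12 such markers 12 were above background on every array, their summed signal was 241694 to 310737 in co-culture and 232849 to 321758 in MSC only, and Ptprc, the gene of CD45, lay between 10424.9 and 13143.5. Of 10 stromal markers 7 were above background on every array and 0 on none, and their sum was 5396.5 to 22084.1 in co-culture and 6767.9 to 21098.4 in MSC only. The part of either in the values of the osteoblast genes was not tested. In bulk RNA, fewer cells of a type and less RNA per cell cannot be told apart.

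Osteoblasts arise from mesenchymal progenitors in an ordered program. RUNX2 commits cells to the lineage, and SP7 (osterix) acts downstream of it. DLX5, a homeobox factor driven by BMP signals, promotes both. Committed cells then make alkaline phosphatase, deposit a collagen matrix with bone sialoprotein, and become responsive to parathyroid hormone. Cells that are buried in mineral switch on DMP1 and PHEX, through which osteocytes control mineral and phosphate.

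RUNX2 binds a short core element, and the promoters of the genes were read for it from the RefSeq promoter table of assembly GRCm38.p6. The table lists 10 promoters for 6 of the 8 genes, with none for Sp7 and Dlx5. The core was searched as AACCACA or, on the other strand, TGTGGTT, in the 250 bases before each start. It was found in 2 of the 10, against 1444 of 32851 promoters of that length (4.4%). The matches were in 1 of the 2 promoters of Dmp1, 165 bases before the start, and in that of Runx2, 81 bases before it. Dmp1 and Ibsp are printed because both lie in the cluster of acidic bone matrix genes on chromosome 5 and both were below background on every array. Both stretches are on the forward strand and are given 5′ to 3′, and the core is in capitals where it was found.
Dmp1, chr5:104202367-104202616: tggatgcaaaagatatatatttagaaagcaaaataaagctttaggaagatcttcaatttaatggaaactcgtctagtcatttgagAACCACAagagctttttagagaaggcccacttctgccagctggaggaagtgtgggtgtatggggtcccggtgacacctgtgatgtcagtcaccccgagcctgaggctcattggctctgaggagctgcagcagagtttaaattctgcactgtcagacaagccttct
Ibsp, chr5:104299037-104299286: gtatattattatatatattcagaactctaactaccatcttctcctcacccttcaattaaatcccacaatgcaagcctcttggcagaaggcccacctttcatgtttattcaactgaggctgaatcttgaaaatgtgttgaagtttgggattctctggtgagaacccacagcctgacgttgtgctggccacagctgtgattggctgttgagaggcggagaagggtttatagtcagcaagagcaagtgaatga
A match is a description of the letters and not a bound site.

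Signals are the deposited array values on a linear scale. The files hold no detection calls, so background was read on each array from 80 probe sets of olfactory and vomeronasal receptors, genes of sensory neurons, as the 95th percentile of their signals. That level ran from 45.9 to 80.2 over the co-cultures (mean 67.0) and from 44.5 to 63.9 over MSC only (mean 54.8). A signal under it cannot be told from that of a gene these cells should not use. By their brightest probe set, 54.3% of all 18193 genes were above it on all 12 arrays, 21.2% on some and 24.5% on none. Of the 7 osteoblast genes, 0 were above it on all 12, 4 on some and 3 on none, and by probe set the counts were 0, 4 and 7 of 11.

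**Figure D1:**
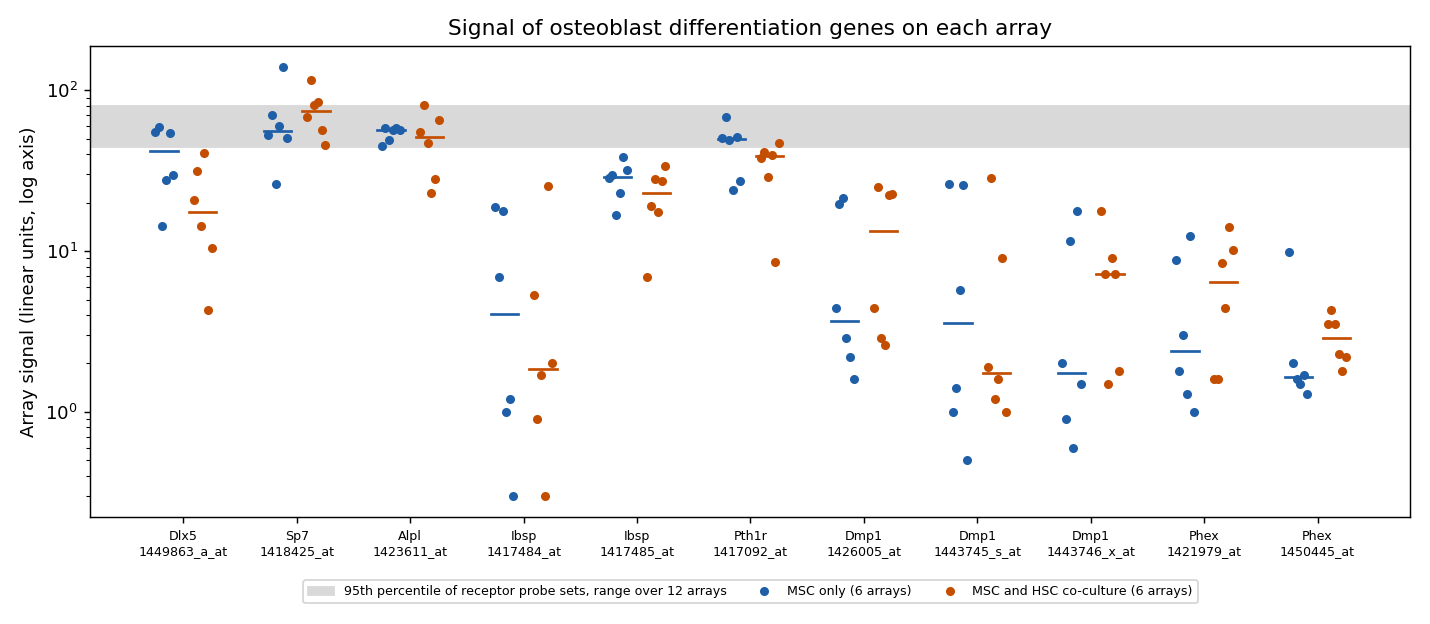
Array signal of each of the 11 probe sets (linear units on a log axis) on the 6 MSC-only arrays (blue) and the 6 co-culture arrays (orange), with a bar at the median of each group; the grey band spans the background level of the 12 arrays, from 44.5 to 80.2. Sp7, Alpl, Pth1r and Dlx5 reach into the band, and every point of Ibsp, Dmp1 and Phex lies under it.

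Sp7 encodes the zinc finger factor osterix, without which no osteoblasts form. Its signal on co-cultures 1 to 6 was 67.8, 115.9, 81.2, 84.0, 56.6 and 46.0, and on MSC-only cultures 1 to 6 it was 52.4, 70.3, 26.3, 59.7, 138.9 and 50.8. It was above the background level of its own array on 7 of 12 arrays, 3 co-cultures and 4 MSC-only cultures, and above every receptor probe set on 3. The groups overlapped along nearly their whole range, and the highest array was an MSC-only culture. The mean signal was 75.3 ± 24.6 (SD, n = 6) with HSCs and 66.4 ± 38.4 (SD, n = 6) without. On the log2(signal + 16) scale the difference, co-culture minus MSC only, was 0.22 (SE 0.27, 95% interval -0.37 to 0.81; limma adjusted p = 1.0). Without numbers 3 and 4 it was -0.07. Within numbers 3 and 4 alone, chosen after seeing the data, it was 0.80 (limma unadjusted p = 0.0723, adjusted p = 0.999).

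Dlx5 encodes a homeobox factor of early skeletal progenitors. Its signal was 20.7, 31.4, 14.3, 41.0, 4.3 and 10.5 on co-cultures 1 to 6, and 54.8, 59.1, 14.3, 27.6, 54.0 and 29.8 on MSC-only cultures 1 to 6. Only MSC-only culture 2 was above the background of its array, and 2 co-cultures, numbers 5 and 6, were below every MSC-only culture. The means were 20.4 ± 13.7 (SD, n = 6) with HSCs and 39.9 ± 18.4 (SD, n = 6) without, and the difference on the log2(signal + 16) scale was -0.63 (SE 0.28, 95% interval -1.25 to -0.016). Dlx5 did not pass the test (limma adjusted p = 1.0, exact permutation test, two-sided, p = 0.0736, adjusted p = 1.0). Its unadjusted limma p was 0.0450, the single value under 0.05 among the 11 probe sets. Over the whole array 4.36% of probe sets had an unadjusted p under 0.05, and 1.55% had it with the lower mean in co-culture.

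The lower Dlx5 signal of the co-cultures was seen on some numbers and not on others. On numbers 1, 2, 5 and 6 the co-cultures spanned 4.3 to 31.4 and the MSC-only cultures 29.8 to 59.1, with a difference of -1.05 (limma adjusted p = 0.542). On numbers 3 and 4 the co-cultures were at 14.3 and 41.0 and the MSC-only cultures at 14.3 and 27.6, with a difference of 0.19. The difference between these sets of numbers was not tested. On numbers 1, 2, 5 and 6 the groups overlapped for Dlx5, with co-culture 2 at 31.4 and MSC-only culture 6 at 29.8. The sex-linked genes did separate the groups on these numbers, and the part of sex in the Dlx5 difference was not tested.

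**Figure D2:**
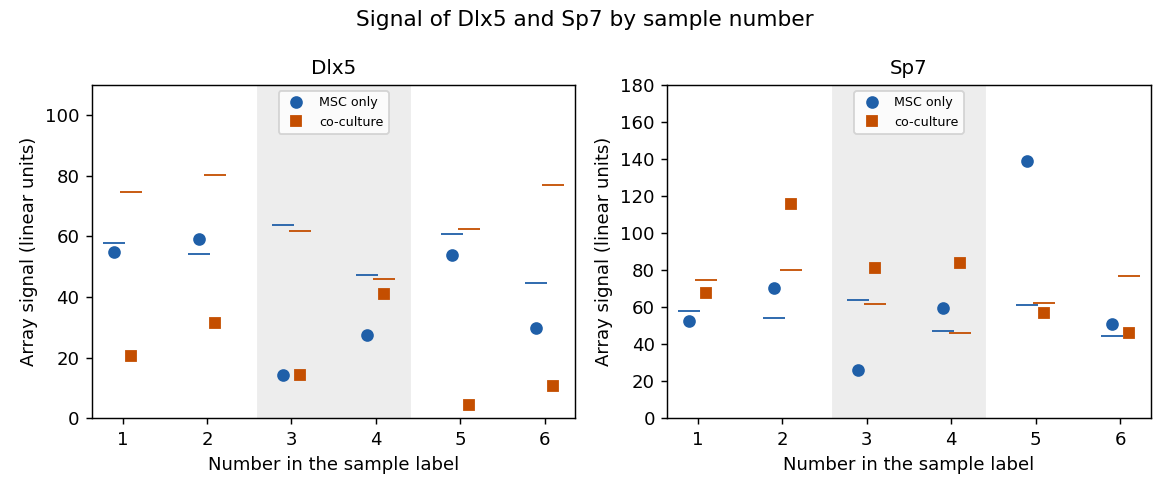
Signal of Dlx5 (left) and Sp7 (right) in linear units against the number in the sample label, for MSC only (circles) and co-culture (squares), with a dash at the background level of each array. Numbers 3 and 4, where both groups had high Xist and low Eif2s3y, are shaded. On the other numbers the co-cultures held both Xist and Eif2s3y, which also goes against a male label. For Dlx5 a single point, MSC-only culture 2 at 59.1, lies above its dash. On each of numbers 1, 2, 5 and 6 the co-culture lies under the MSC-only culture of that number. The numbers were not taken as pairs, and co-culture 2 (31.4) lies above MSC-only culture 6 (29.8).

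Alpl encodes tissue-nonspecific alkaline phosphatase, which frees phosphate for mineral and is the usual stain for osteoblast differentiation. Its signal was 55.1, 81.1, 46.9, 23.0, 28.1 and 65.7 on co-cultures 1 to 6, and 45.2, 58.7, 49.3, 56.5, 58.2 and 56.6 on MSC-only cultures 1 to 6. The MSC-only arrays lay close together, and of the co-cultures 2 were above all of them and 2 below. It was above background on 4 of 12 arrays, 1 co-culture and 3 MSC-only cultures. That split depends on the level of each array, which was higher on average over the co-cultures. Co-culture 6 at 65.7 was under its level of 76.85, and MSC-only culture 6 at 56.6 was above its level of 44.52. The means were 49.98 ± 22.2 (SD, n = 6) with HSCs and 54.1 ± 5.52 (SD, n = 6) without, and the difference was -0.16 (SE 0.20, 95% interval -0.60 to 0.28; limma adjusted p = 1.0).

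Ibsp encodes bone sialoprotein, a matrix protein that binds hydroxyapatite as mineral forms. Its probe set 1417485_at gave 6.9, 19.0, 28.1, 17.5, 27.2 and 33.6 on co-cultures 1 to 6, and 28.6, 29.6, 16.7, 22.9, 38.5 and 31.9 on MSC-only cultures 1 to 6. All 12 values were under background and the groups overlapped. The difference was -0.24 (SE 0.19, 95% interval -0.64 to 0.17; limma adjusted p = 1.0). The other probe set of Ibsp, 1417484_at, ranged from 0.3 to 25.3 over the 12 arrays, also under background throughout, with a difference of -0.12 (SE 0.27).

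Pth1r encodes the receptor for parathyroid hormone and its related peptide, through which osteoblasts respond to both. Its signal was 38.2, 41.2, 28.9, 39.4, 8.6 and 47.2 on co-cultures 1 to 6, and 50.7, 68.3, 49.2, 23.9, 51.6 and 27.2 on MSC-only cultures 1 to 6. It was above background on 1 array, an MSC-only culture, and 1 co-culture, number 5, was below every MSC-only culture. The means were 33.9 ± 13.7 (SD, n = 6) with HSCs and 45.2 ± 16.7 (SD, n = 6) without, and the difference was -0.31 (SE 0.25, 95% interval -0.84 to 0.23; limma adjusted p = 1.0).

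Dmp1 and Phex mark the passage to the osteocyte. DMP1 is an acidic phosphoprotein of the mineralized matrix, and PHEX is a membrane endopeptidase whose loss raises the phosphate-wasting hormone FGF23. Dmp1 had 3 probe sets, of which 1426005_at gave 4.4, 25.0, 2.9, 2.6, 22.4 and 22.5 on co-cultures 1 to 6 and 4.4, 19.5, 21.5, 2.9, 2.2 and 1.6 on MSC-only cultures 1 to 6. Both groups held arrays with very low values and arrays with higher ones, and all 12 were under background. Its difference was 0.23 (SE 0.28, 95% interval -0.38 to 0.85; limma adjusted p = 1.0). The other probe sets of Dmp1 ranged from 0.5 to 28.3 and from 0.6 to 17.8, with differences of -0.15 (SE 0.32) and 0.13 (SE 0.22). The probe sets of Phex ranged from 1.0 to 14.2 and from 1.3 to 9.9, with differences of 0.13 (SE 0.18) and 0.0096 (SE 0.11).

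Over the whole set, limma called 0 of the 11 probe sets, where it called 0.00444% of all probe sets on the array. Unadjusted, 1 of the 11 had a limma p under 0.05, beside 4.36% of all probe sets. The exact permutation test called 0 after adjustment over 45037 probe sets. Its smallest p was 0.0022, so no probe set could pass that adjustment on its own, and this 0 adds no support. In 0 of the 11 were the groups without overlap, as against 0.198% of all probe sets. By mean 5 probe sets were higher and 6 lower in co-culture, with a median difference of -0.12, beside 0.02 over all probe sets. Without numbers 3 and 4, limma again called 0 of the 11 (lowest adjusted p = 0.542), and the differences were 0.0036 for Alpl, -0.41 for Ibsp 1417485_at, -0.44 for Pth1r, 0.60 for Dmp1 1426005_at and between -0.14 and 0.21 for the other probe sets of Ibsp, Dmp1 and Phex. The adjusted p-values do not show that the groups were alike, since the interval of Sp7 reached 0.81 log2 units and that of Dlx5 -1.25.

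**Figure D3:**
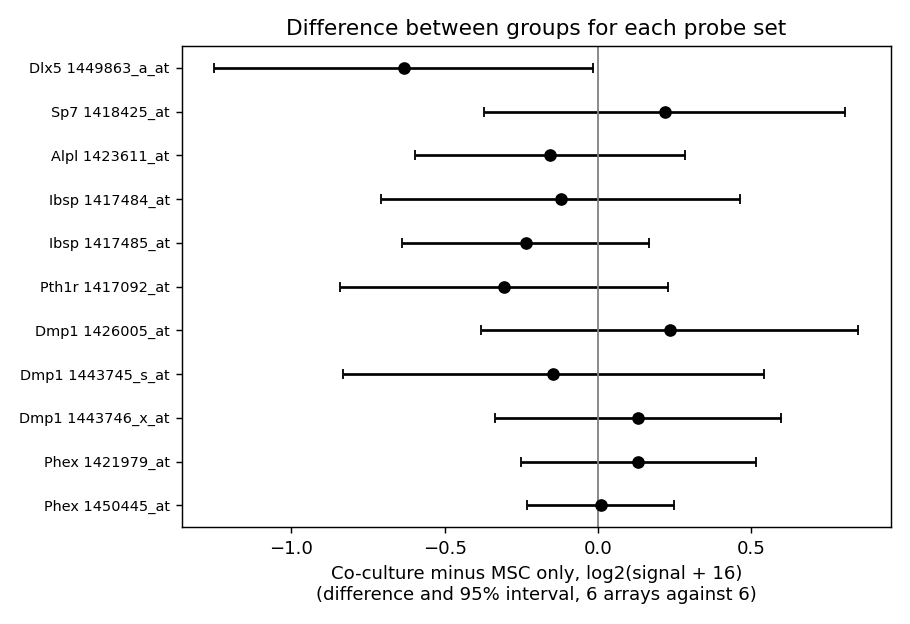
Difference between the groups, co-culture minus MSC only on the log2(signal + 16) scale, for each of the 11 probe sets; points are the differences and bars the 95% intervals of 6 arrays against 6. Every interval but that of Dlx5, which ends at -0.016, spans 0, and no adjusted p was under 0.05.

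Over the 12 arrays, 50 pairs of probe sets of different genes had a Pearson r between -0.53 and 0.65 with a median of 0.11, and the 5 pairs of probe sets of 1 gene had r between -0.071 and 0.23 with a median of 0.028. Each r is a description over 12 arrays that share their scaling. Against the signals of Pdgfra (an MSC sort marker), Col1a1 (type I collagen) and Ptprc, the 7 genes gave 21 relations with r from -0.42 to 0.48 and Spearman's rho from -0.50 to 0.53. By permutation test 0 of the 21 had an unadjusted p under 0.05 for r, and the smallest adjusted p was 0.877 for r and 0.538 for rho. Without the 2 arrays farthest from the median of the reference gene, the 21 values of r ran from -0.76 (Dmp1 with Col1a1) to 0.478 (Dlx5 with Pdgfra). That of Sp7 with Ptprc went from 0.475 to 0.007. These values were not tested. No gene was named as like them in pattern, since none of the 7 was above background on all 12 arrays.

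The wider program was read from 5 further lists of 51 symbols, of which 43 were measured. Of the 43, limma called 0, 21 had a higher and 22 a lower mean in co-culture, and 25 were above background on all 12 arrays, 13 on some and 5 on none. Values below are of the brightest probe set of each gene, over all 12 arrays unless stated.

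Of 11 measured factors of commitment, 4 were above background on all 12 arrays, 6 on some and 1 on none, and their median difference was 0.01 beside 0.01 over all genes. The measured Dlx, Msx and Twist genes were not among the 4. Atf4 and Cbfb, the latter encoding the partner of all RUNX factors, were above it on all 12 arrays, with differences of -0.07 (SE 0.10) and -0.05 (SE 0.10). Msx1, a homeobox gene of skeletal progenitors, had 83.7 ± 9.96 (SD, n = 6) in co-culture, from 72.9 to 99.7, and 57.2 ± 16.6 (SD, n = 6) in MSC only, from 32.9 to 80.7. It was above background on 8 arrays, and its difference of 0.47 (SE 0.15) did not pass the test (limma unadjusted p = 0.00831, adjusted p = 1.0). The background level was itself higher on average in co-culture, and its part in this difference was not tested. Twist1, whose product holds RUNX2 in check, had 74.6 ± 23.2 (SD, n = 6) with HSCs and 115.8 ± 38.6 (SD, n = 6) without, with a difference of -0.53 (SE 0.21; limma unadjusted p = 0.0240, adjusted p = 1.0). Msx1 and Twist1 were the only genes of the 43 with an unadjusted p under 0.05 by limma, beside 4.36% of all probe sets on the array. The count of 2 was 10 without numbers 3 and 4, where limma again called 0. The share of all probe sets without those numbers was not counted, so the 10 cannot be set against it.

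Of 9 measured genes of the bone matrix, 7 were above background on all 12 arrays and 2 on some, and 8 of 9 had the lower mean in co-culture, with a median difference of -0.25 and 0 called. Col1a1 had 477 ± 86.2 (SD, n = 6) with HSCs and 629 ± 167 (SD, n = 6) without, a difference of -0.36 (SE 0.19; limma adjusted p = 1.0). Col1a2, the other chain of type I collagen, gave -0.25 (SE 0.20) and Sparc (osteonectin) -0.24 (SE 0.18). Stromal cells of many tissues make these proteins. Omd, for the bone proteoglycan osteomodulin, was above background on 2 arrays, with a difference of -0.76 (SE 0.36; limma adjusted p = 1.0). Arrays within a group differed widely for Ogn (osteoglycin), from 90.9 to 2577.8 in co-culture and from 233.5 to 3078.2 in MSC only. Spp1 and the osteocalcin genes Bglap, Bglap2 and Bglap3 were not analysed here.

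Of 6 measured genes of mineral and phosphate handling, 4 were above background on all 12 arrays, 1 on some and 1 on none, with a median difference of 0.03. Fam20c, the kinase of secreted phosphoproteins, and the phosphate carriers Slc20a1 and Slc20a2 were above it on all 12, with differences of 0.08 (SE 0.12), -0.02 (SE 0.09) and -0.23 (SE 0.18). Ahsg, for the mineral-binding plasma protein fetuin-A, was above it on 0 arrays, with a difference of 0.22 (SE 0.15). The list held the gene of the pyrophosphate exporter under both of its symbols, and it was measured as Ank.

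Of 8 osteocyte genes, 4 were above background on all 12 arrays, 2 on some and 2 on none, with a median difference of 0.08. The 2 on none were Sost (sclerostin) and Mepe, both largely restricted to bone and tooth. Fgf23 was above it on 3 arrays, with a difference of 0.30 (SE 0.16), and Gja1 (connexin 43) and Capg, which many cells use, on all 12, with -0.19 (SE 0.19) and 0.06 (SE 0.20).

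Of 9 hormone and growth factor receptor genes, 6 were above background on all 12 arrays, 2 on some and 1 on none, with a median difference of 0.10. Fgfr2 gave 138 ± 20.3 (SD, n = 6) with HSCs and 168 ± 25.1 (SD, n = 6) without, a difference of -0.25 (SE 0.12; limma adjusted p = 1.0). Fgfr1, Ghr (growth hormone receptor) and Gnas, whose product carries the signal of PTH1R to cyclic AMP, gave -0.13 (SE 0.10), -0.07 (SE 0.23) and 0.0024 (SE 0.085).

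**Figure D4:**
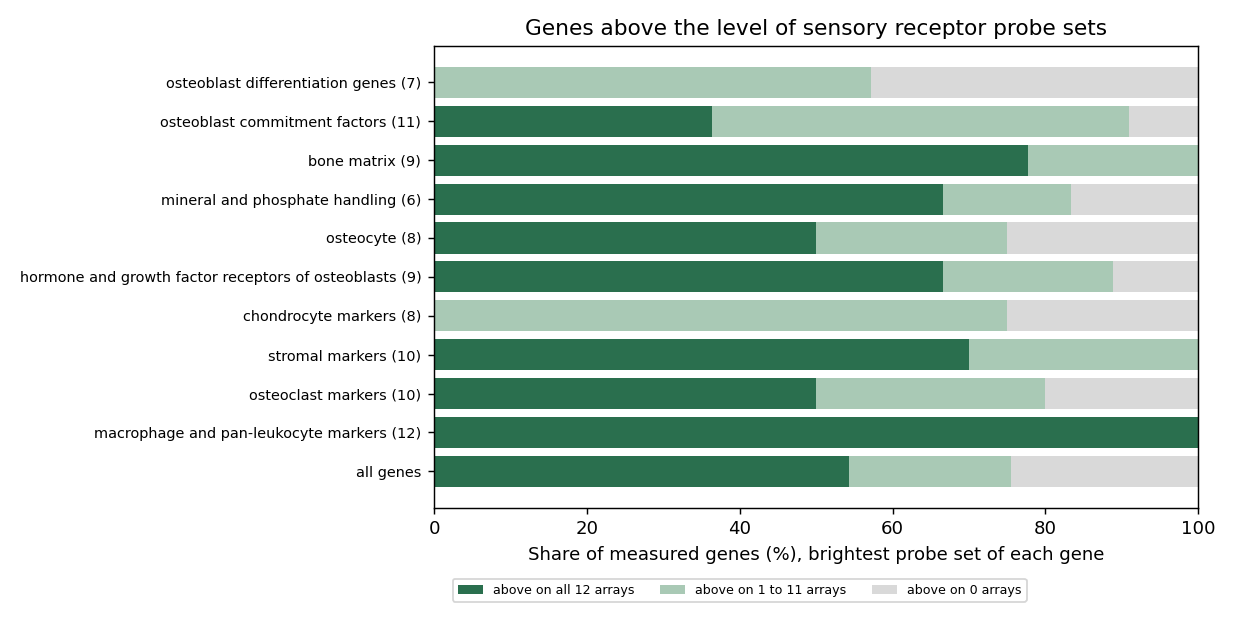
Share of the measured genes of each list (number in brackets) whose brightest probe set was above background on all 12 arrays (dark green), on 1 to 11 (light green) or on 0 (grey), in percent. The osteoblast differentiation genes have no dark part, with 4 of 7 light, and among all genes the dark part is 54.3%.

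The markers of the other mesenchymal fates were not called either. Of 8 chondrocyte markers 0 were above background on all 12 arrays, 6 on some and 2 on none, with sums of 328.3 to 465.7 in co-culture and 209.6 to 386.4 in MSC only. The chondrocyte markers had the higher mean in co-culture in 8 of 8, with a median difference of 0.24, 0 called by limma and 0 with an unadjusted p under 0.05, beside a median of 0.01 over all genes. The background level was also higher on average in co-culture (67.0 against 54.8), the 6 endothelial markers, of which 1 was above it on all 12 arrays, had the higher mean in co-culture in 6 of 6 with a median difference of 0.23, and the part of the background in these differences was not tested. Of 6 measured adipocyte markers 3 were above it on all 12 (Lpl, Cebpa and Pparg), 1 on some (Retn) and 2 on none (Adipoq and Cidec). Lpl, the brightest, lay between 25271.2 and 42760.2. Macrophage and leukocyte genes were high in the same cultures, and which cells gave the signals of Lpl, Cebpa and Pparg was not tested. In 5 of the 6 the mean was higher in co-culture, with a median difference of 0.14 and 0 called by limma, and the 1 with an unadjusted p under 0.05, Cidec of lipid droplets, had a difference of -0.53 (limma unadjusted p = 0.0497, adjusted p = 1.0) and was above background on 0 arrays. Of 10 osteoclast markers, genes of the bone-resorbing cell, 5 were above background on all 12 arrays, 3 on some and 2 on none. The 3 brightest were Atp6v0d2 (10476.8 to 19147.9), Nfatc1 (967.9 to 1374.1) and Ctsk (469.5 to 851.1), each above it on all 12. The 2 on none were Calcr and Ocstamp.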

How the data were processed

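RNA of 12 cultures was hybridized by the authors to Affymetrix mouse arrays, and the deposited table holds signal intensities on a linear scale, scaled to a common 2% trimmed mean (496.6 to 497.3). Per the study's methods they were analysed with the GeneChip Operating Software, and neither its summary algorithm nor its scaling target is named there. Arrays correlated at 0.964 to 0.980 over 66 pairs. Precision is limited by the number of arrays, which have no sequencing depth. The platform annotation gave 34945 probe sets 1 symbol, 932 several and 9160 none, and only the first were named. Values of a gene are those of its brightest probe set.

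Signals were taken as log2(signal + 16) and the groups compared with limma 3.58.1 (lmFit and eBayes, R 4.3.3, 6 arrays against 6, no block), adjusted by Benjamini-Hochberg over 45037 probe sets, with a threshold of 0.05. The fit was tested on simulated data. Exact permutation tests were two-sided over 924 arrangements (smallest p 0.0022). Relations used 100000 permutations. Background was the 95th percentile of 80 receptor probe sets. In each further list the genes with the 2 smallest p and the 2 brightest were named. Ogn, Sost and Mepe, the Dlx, Msx and Twist genes as a group, and the cell type markers were named after their values were seen. The genes and lists were chosen with earlier results of these data known. Numbers in the labels were not taken as pairs.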

Additional observations from a re-analysis of the deposited data

Results flagged for a closer look

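In 22 groups of 6 arrays (11 probe sets in each of 2 groups), 3 held an array far from the rest, and chance alone gives about 1 in 20. Pth1r was at 8.6 on co-culture 5, with the other co-cultures at 28.9 to 47.2. Ibsp (1417484_at) was at 25.3 on the same array, with the others at 0.3 to 5.3. Phex (1450445_at) was at 9.9 on MSC-only culture 1, with the others at 1.3 to 2.0. All 3 values were under the background of their array.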

How the results depend on the processing

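The count of osteoblast differentiation probe sets past the threshold was 0 under each of the alternatives that gave a value (lowest limma adjusted p = 0.542). They covered scaling, the added constant, limma's trend and robust options, the methods' t-test, the replicate block, numbers 3 and 4, and leaving out each array. Keeping the brighter probe sets left 0 of the 11 and gave no value. The count of genes above background was 0, and 1 (Sp7) where 6 of 12 arrays were enough. Signs changed in 20 of 253 values. Without numbers 3 and 4 the differences were -0.074 for Sp7, 0.0036 for Alpl, 0.0651 for Ibsp 1417484_at and -0.0387 for Phex 1450445_at. Within numbers 3 and 4 alone, chosen after seeing the data, they were 0.1079 for Ibsp 1417485_at, -0.5058 for Dmp1 1426005_at, -0.0304 for Dmp1 1443746_x_at and 0.1933 for Dlx5. For Phex 1450445_at quantile normalization gave -0.0148, median centring -0.0304 and a constant of 64 -0.0001. Leaving out 1 array gave -0.3218 to 0.0049 for Ibsp 1417484_at, -0.3525 to 0.0192 for Dmp1 1443745_s_at, -0.0142 to 0.1023 for Phex 1450445_at, -0.80 to -0.48 for Dlx5, 0.0479 to 0.4224 for Sp7, -0.2817 to -0.0185 for Alpl and -0.419 to -0.1136 for Pth1r. The causes were not tested. The deviations of same-numbered arrays correlated at 0.103 to 0.154 for numbers 3 to 6 and at -0.161 and -0.133 for numbers 1 and 2, and low Y-linked signal also went with numbers 3 and 4 in both groups. Since not every number was over 0.1 and the labels name no shared source, the numbers were not taken as pairs. With the replicate block 0 of the 11 probe sets passed, as without it, and 0 probe sets of the whole array in place of 2. Over the other alternatives that count ran from 0 to 8. Of the 43 genes of the further lists, 0 passed under each alternative, and the 2 with an unadjusted p under 0.05 became 10 without numbers 3 and 4, 8 without co-culture 3, and 0 to 5 under the rest. The shares of all probe sets with an unadjusted p under 0.05 were not counted under these alternatives.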
